A study of Mus musculus with 12 samples.

Results

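Vasoactive signalling was followed through 8 genes that make or sense signals acting on blood vessels, out of 35976 gene names measured: Nos3, Edn1, Ece1, Adm, Calcrl, Ramp2, Apln and Aplnr. They were found by symbol in every library. Nos3, Ramp2 and Aplnr were chosen by their measured response to doxycycline, which differed between the sorted populations, and the other 5 are their ligands, partners or neighbours in the same pathways. The doxycycline values of those 3 genes are therefore given as a description, with no test. All 8 passed the filter on low values that left 13316 genes.

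Endothelial cells release nitric oxide, made by the enzyme that Nos3 encodes, which relaxes the muscle of the vessel wall. The peptide endothelin-1, cut from the precursor made by Edn1 with the protease encoded by Ece1, constricts vessels, while adrenomedullin dilates them and keeps the endothelial layer tight. Adrenomedullin is sensed by the receptor encoded by Calcrl together with its partner RAMP2. Apelin, the product of Apln, acts through the receptor encoded by Aplnr, which also marks mesoderm and growing or venous vessels in the embryo. Hemogenic endothelium, from which the first blood cells emerge, shares much of this equipment with other endothelium.

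All 12 libraries came from mouse A2lox.cre embryonic stem cells that carry RUNX1-EVI1 under doxycycline control. This leukaemia fusion joins a transcription factor needed for blood formation to the zinc finger protein of the Mecom locus. PlusDox cells received 0.5 µg/ml doxycycline for 18 hours and NoDox cells received 0 µg/ml, and both were sorted into hemogenic endothelial 1 (HE1), hemogenic endothelial 2 (HE2) and hematopoietic progenitor (HP) cells. The 6 groups had 2 biological replicates each, and total RNA was sequenced with a stranded kit. All groups started from FLK1-positive cells of embryoid bodies, purified on magnetic columns and grown in one medium with VEGF and IL-6. The line was raised from single colonies. How many clones were used, the sort gates and the makeup of each replicate are not stated in the labels. PlusDox and NoDox cells differ in the drug as well as in the fusion, and the effects of the drug and of the fusion cannot be told apart here.

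Levels are in FPKM, read fragments divided by transcript length and library total, so that they can be set against each other between genes. Between 11461 and 12174 genes reached 1 FPKM in a library, and the steps between low values point to 11000000 to 45800000 fragments per library, an estimate made without read counts. Mecom, whose reads can include the fusion, lay at 18.4 and 20.2 FPKM in PlusDox HE2 against 6.08 and 13.9 FPKM in NoDox HE2. It lay at 5.18 and 5.51 FPKM in PlusDox HP against 0.194 and 0.205 FPKM in NoDox HP, and the arms overlapped in HE1 (18.1 to 23.0 FPKM in PlusDox and 17.0 to 28.3 FPKM in NoDox). Runx1, the other part of the fusion, overlapped between the arms in each population. It had 3.99 and 0.993 FPKM in PlusDox HE1 against 3.56 and 1.41 FPKM in NoDox HE1. It had 35.8 and 21.3 FPKM in PlusDox HE2 against 29.4 and 36.8 FPKM in NoDox HE2. In HP it had 62.0 and 15.2 FPKM with doxycycline against 67.4 and 56.0 FPKM without. In 5 libraries 8.81% to 16.9% of summed FPKM fell on Lars2, Mir6236 and LOC101056014, against 0.355% to 0.591% in the other 7. These 5 were replicate 2 of PlusDox HE1, PlusDox HE2, PlusDox HP and NoDox HP, and replicate 1 of NoDox HE1. Summed FPKM of 8 endothelial markers was 1380 to 1546 in PlusDox HE1 and 1274 to 1799 in NoDox HE1. It was 1189 to 1205 in PlusDox HE2 and 700.1 to 1056 in NoDox HE2, and 213 to 304 in PlusDox HP and 135 to 159 in NoDox HP. Summed FPKM of 8 blood markers ran the other way, with 36.1 to 76.0 in the HE1 libraries, 203 to 330 in HE2 and 401 to 553 in HP. Summed FPKM of 4 cardiac markers was at most 7.43 and that of 4 markers of undifferentiated embryonic stem cells at most 1.72. In bulk RNA, fewer cells of a type and less RNA per cell cannot be told apart.

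The genes lie on 7 chromosomes of mouse build GRCm38.p6 and all are annotated as protein coding. Nos3 lies on chromosome 5 (24364816 to 24384474) and Ramp2 on chromosome 11 (101246334 to 101248250). Aplnr (85136360 to 85139923) and Calcrl (84330626 to 84425405) lie on chromosome 2. Edn1 lies on chromosome 13 (42301476 to 42307990), Ece1 on chromosome 4 (137862237 to 137965229), Adm on chromosome 7 (110627657 to 110629820) and Apln on the X chromosome (48025146 to 48034853). The end of Atg9b shares 294 bases with Nos3, and Atg9b reached at most 2.28 FPKM. The strand setting of the counting is not given, so reads from overlapping genes could be shared. The spans of Nos3, Ece1 and Adm also hold lncRNA genes (Gm15587 in Nos3, Gm13012 and Gm52683 in Ece1, Gm28863 over Adm) for which no value was used here.

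RefSeq promoter sequences of the same build, from 250 bases before to 50 bases after a start site, were at hand for 5 of the 8 genes. They are shown because the induced fusion carries the DNA-binding part of RUNX1, and because Edn1, Ece1 and Apln differ in what they hold. Capitals mark a match, on either strand, to the RUNX core, spelled TGTGGT or in its other form TGCGGT, or to a GATA site, spelled AGATAA or in its other form TGATAA.
Edn1 promoter, chr13:42301226-42301525, plus strand: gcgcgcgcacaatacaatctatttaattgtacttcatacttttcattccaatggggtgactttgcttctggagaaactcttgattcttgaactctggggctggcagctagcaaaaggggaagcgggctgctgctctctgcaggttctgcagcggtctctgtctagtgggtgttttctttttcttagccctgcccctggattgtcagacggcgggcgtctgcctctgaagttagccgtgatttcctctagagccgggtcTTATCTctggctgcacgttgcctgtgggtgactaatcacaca
Ece1 start site 3 promoter, chr4:137913308-137913607, plus strand: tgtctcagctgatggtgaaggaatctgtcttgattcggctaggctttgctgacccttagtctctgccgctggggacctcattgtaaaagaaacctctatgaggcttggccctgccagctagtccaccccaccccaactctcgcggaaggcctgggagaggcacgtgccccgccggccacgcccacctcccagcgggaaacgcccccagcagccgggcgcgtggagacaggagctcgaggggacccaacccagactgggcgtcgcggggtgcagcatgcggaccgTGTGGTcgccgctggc
Ece1 start site 4 promoter, chr4:137920543-137920842, plus strand: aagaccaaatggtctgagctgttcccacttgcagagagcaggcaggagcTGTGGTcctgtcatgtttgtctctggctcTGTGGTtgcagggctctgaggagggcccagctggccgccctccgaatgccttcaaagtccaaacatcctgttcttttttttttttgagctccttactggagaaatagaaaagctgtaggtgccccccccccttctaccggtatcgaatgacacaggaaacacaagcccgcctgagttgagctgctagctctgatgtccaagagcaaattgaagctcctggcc
Apln promoter, chrX:48034804-48035103, minus strand: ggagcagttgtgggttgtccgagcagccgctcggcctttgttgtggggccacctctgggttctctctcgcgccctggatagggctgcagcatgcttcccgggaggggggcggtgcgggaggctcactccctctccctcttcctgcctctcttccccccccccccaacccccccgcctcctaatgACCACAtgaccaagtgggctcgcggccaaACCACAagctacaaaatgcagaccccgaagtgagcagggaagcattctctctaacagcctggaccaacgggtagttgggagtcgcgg

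The Edn1 window held a GATA match at bases 259 to 264 and no RUNX match. Ece1 start site 3 held a RUNX match at bases 285 to 290, and start site 4 held RUNX matches at bases 50 to 55 and 79 to 84. The Apln window held RUNX matches at bases 185 to 190 and 214 to 219. The windows of Calcrl, of Adm and of Ece1 start sites 1 and 2 held no match to these letters, and no window held GACAAGATA (EVI1) or TGACTCA (AP-1). Of all 32851 promoters of this length, 22.4% held a RUNX match, 18.6% a GATA match, 5.20% an AP-1 match and 0.119% an EVI1 match. A match describes letters only, and binding was not measured.

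Nos3, the endothelial nitric oxide synthase, stood higher in every PlusDox library than in any NoDox library of the same population. In HE1 it had 119 and 73.6 FPKM with doxycycline, against 58.0 and 68.8 FPKM without. In HE2 it had 56.7 and 39.9 FPKM with doxycycline, against 8.43 and 13.2 FPKM without. The gap was wide in HE2, where the PlusDox mean was 4.46-fold the NoDox mean, and narrow in HE1, where it was 1.52-fold. In HP it had 1.25 and 1.13 FPKM with doxycycline, against 0.0578 and 0.0880 FPKM without. The log2 folds, taken on FPKM + 1, were 0.56 ± 0.27 in HE1, 2.07 ± 0.27 in HE2 and 1.03 ± 0.27 in HP (SE, n = 2 against 2). Without PlusDox HE1 replicate 1 the HE1 value was 0.22. With a pseudocount of 0.1 the HP value was 2.90, since Nos3 is near 0 in NoDox HP. The share of all genes whose arms of 2 libraries do not overlap was not counted. Non-overlap, here and for the genes below, is therefore a description only.

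**Figure D1:**
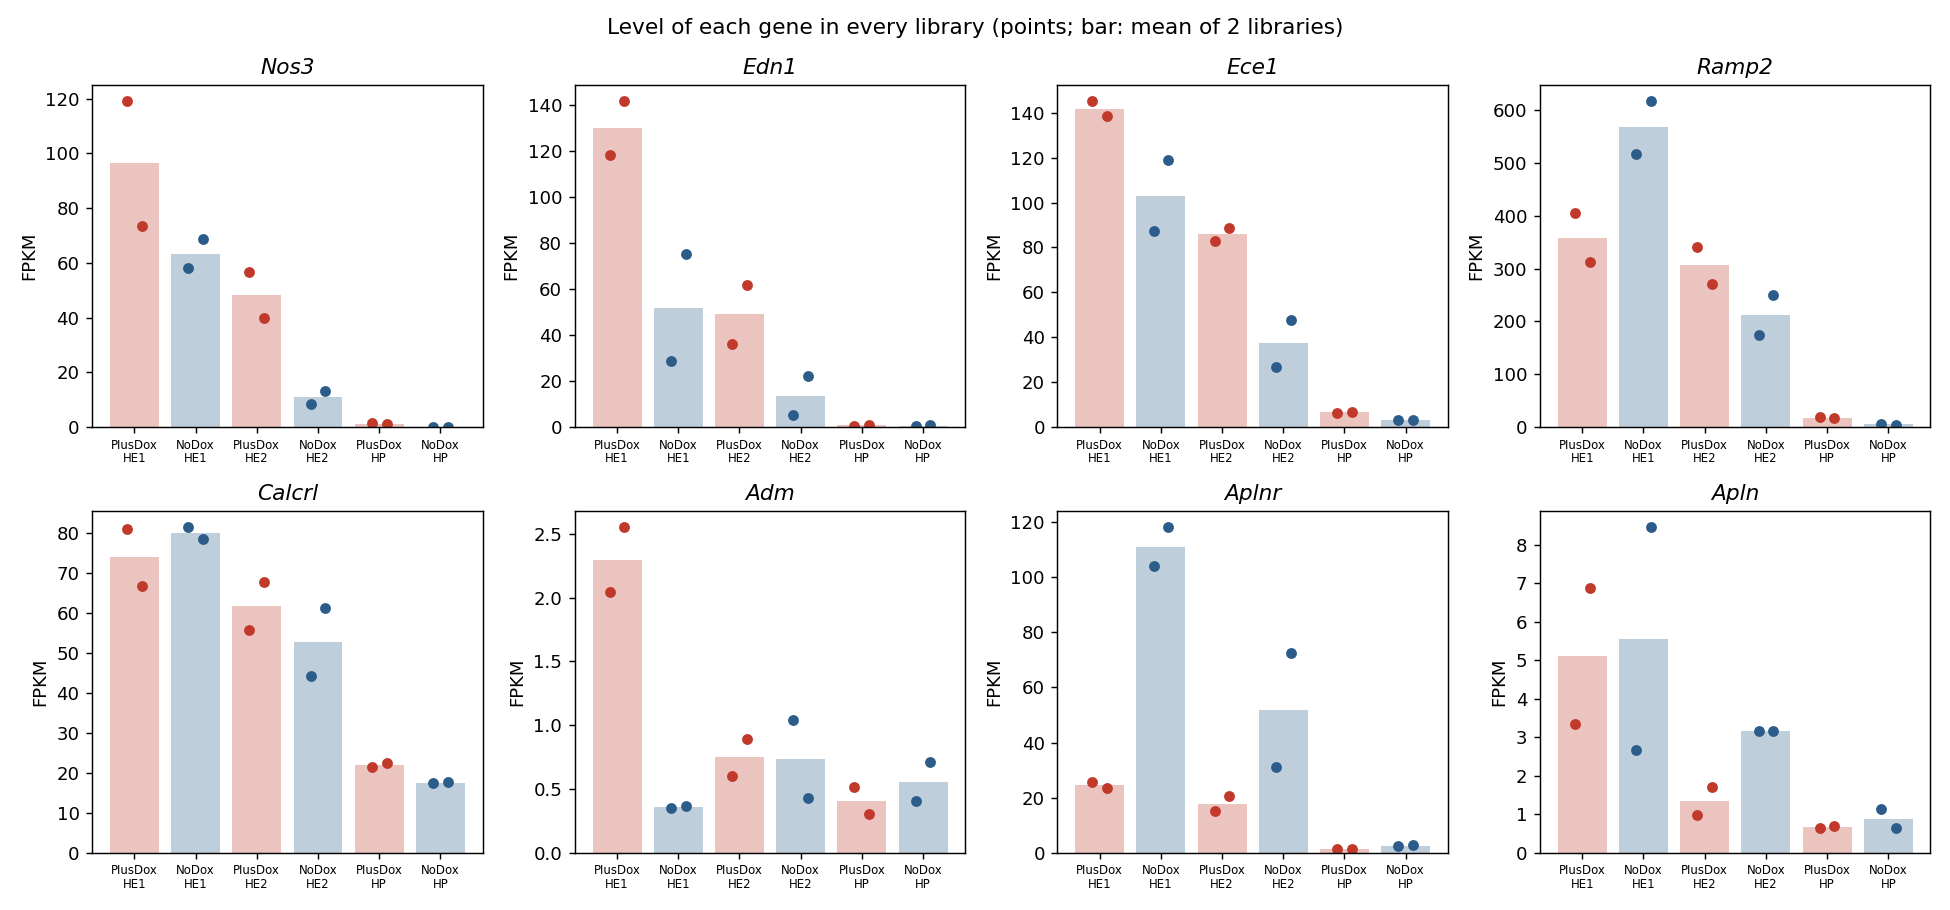
Level of the 8 genes in FPKM in each of 12 libraries (points, red for PlusDox and blue for NoDox; bars, mean of 2 libraries), each population with PlusDox left of NoDox. Nos3 in HE2 stood at 39.9 and 56.7 FPKM with doxycycline, and Aplnr in HE1 at 23.5 and 25.6 FPKM with doxycycline, against 104 and 118 FPKM without.

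Endothelin-1 transcript Edn1 was higher in both PlusDox libraries than in both NoDox libraries of HE1 and of HE2. Its replicates lay far apart, and neither difference passed the test in a fit of the 6 group means alone. In HE1 it had 118 and 141 FPKM with doxycycline, against 28.4 and 75.0 FPKM without. In HE2 it had 36.0 and 61.8 FPKM with doxycycline, against 5.11 and 22.2 FPKM without. Replicate 2 was the higher of the pair in all 6 groups. With a term for replicate number added to that fit, the differences in HE1 and in HE2 passed. That term also raised the calls over all genes, from 182 to 459 in HE1 and from 807 to 2296 in HE2. The labels do not pair the replicates, so it is an alternative only. The HE2 difference also passed with quantile normalization, where the calls over all genes in HE2 were 1824. In HP the arms overlapped, at 0.539 and 0.833 FPKM with doxycycline and 0.264 and 0.704 FPKM without. The limma log2 folds were 1.46 ± 0.55 in HE1 (adjusted p = 0.337), 2.02 ± 0.55 in HE2 (adjusted p = 0.0507) and 0.19 ± 0.55 in HP (adjusted p = 0.995). The HE2 value passed the threshold when NoDox HE1 replicate 1 (adjusted p = 0.0399), NoDox HE1 replicate 2 (0.0400) or NoDox HE2 replicate 2 (0.00537) was left out of the limma fit.

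Ece1, the membrane protease that activates big endothelin, rose with doxycycline in HE2 and did not pass the test in HE1 or HP. In HE2 it had 82.9 and 88.7 FPKM with doxycycline, against 26.8 and 47.6 FPKM without, a log2 fold of 1.24 ± 0.24 in limma (adjusted p = 0.0124). In HE1 it had 145 and 138 FPKM with doxycycline, against 87.2 and 119 FPKM without (0.47 ± 0.24, limma adjusted p = 0.614). In HP it had 6.30 and 6.62 FPKM with doxycycline, against 2.90 and 3.16 FPKM without (0.89 ± 0.24, limma adjusted p = 0.149). The PlusDox libraries were above the NoDox libraries in all 3 populations, a description given without the share over all genes. The log2 folds of HE2 and HE1 differed by 0.76 ± 0.34 (limma adjusted p = 0.719). The HE2 call was lost without NoDox HE2 replicate 1 (log2 fold 0.84, limma adjusted p = 0.120) and without PlusDox HE2 replicate 2 (1.19, adjusted p = 0.0848). Within the libraries low in Lars2, the HE2 log2 difference of Ece1 was 1.19 (1 PlusDox against 2 NoDox).

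Receptors and other enzymes of the endothelin system were measured beside them. Edn2 and Edn3, the other endothelin genes, were listed at 0 in every library, and Ednra, the receptor of vascular muscle, stayed below 1 FPKM in all 12. Ednrb, the endothelial endothelin receptor, had 12.1 and 5.88 FPKM in PlusDox HE1 against 28.2 and 23.0 FPKM in NoDox HE1, a difference that did not pass the test. The ratio of Edn1 to Ednrb FPKM was 9.80 and 24.1 in PlusDox HE1 against 1.01 and 3.26 in NoDox HE1. It was 2.50 and 3.42 in PlusDox HE2 against 0.307 and 1.04 in NoDox HE2, and below 0.1 in all 4 HP libraries.

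Adm, which encodes adrenomedullin, was low in all 12 libraries, with its highest values in PlusDox HE1. It had 2.04 and 2.55 FPKM in PlusDox HE1, against 0.351 and 0.366 FPKM in NoDox HE1 (log2 fold 1.28 ± 0.22, limma adjusted p = 0.0166). Elsewhere it reached 1 FPKM in NoDox HE2 replicate 1 alone. Adm thus passed the filter through the group where it was high, and the call is read as no support. With no filter on low values its adjusted p was 0.0439. In HE2 it had 0.600 and 0.894 FPKM with doxycycline, against 1.04 and 0.428 FPKM without, and in HP 0.513 and 0.302 FPKM with doxycycline, against 0.405 and 0.709 FPKM without. The arms overlapped in both (limma adjusted p = 0.960 in HE2 and 0.985 in HP). The HE2 log2 fold minus that of HE1 was -1.25 ± 0.31 (limma adjusted p = 0.274), and the HP fold minus that of HE1 was -1.42 ± 0.31 (limma adjusted p = 0.158). The HE1 call was lost when any of the 4 HE1 libraries was left out (log2 folds 1.16 to 1.39, limma adjusted p = 0.0605 to 0.178), and with a pseudocount of 0.1 (2.38, adjusted p = 0.0563). The summed FPKM of 8 smooth muscle and mesenchyme markers, of which 0 of 7 tested were called, was 247 to 321 in PlusDox HE1 and 135 to 212 in NoDox HE1. The part of such cells in the Adm value was not tested.

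Calcrl, the adrenomedullin receptor, showed no doxycycline difference that passed the test in any population. It had 81.0 and 66.9 FPKM in PlusDox HE1 against 81.6 and 78.6 FPKM in NoDox HE1 (log2 fold -0.12 ± 0.19, limma adjusted p = 0.964). It had 55.8 and 67.8 FPKM in PlusDox HE2 against 44.2 and 61.3 FPKM in NoDox HE2 (0.24 ± 0.19, limma adjusted p = 0.521). Only HP showed no overlap among these pairs, with 21.4 and 22.4 FPKM in PlusDox against 17.5 and 17.6 FPKM in NoDox (0.30 ± 0.19, limma adjusted p = 0.776).

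Ramp2, the accessory protein that turns the Calcrl product into an adrenomedullin receptor, had the highest FPKM of the 8 genes in every HE1 and HE2 library, and its doxycycline values lay on opposite sides. In HE1 it was lower with doxycycline, at 405 and 312 FPKM against 518 and 617 FPKM without. In HE2 it was higher, at 341 and 271 FPKM with doxycycline against 175 and 249 FPKM without. No PlusDox library overlapped a NoDox library in either population. In HP it had 17.8 and 17.7 FPKM with doxycycline against 5.00 and 4.28 FPKM without, a mean 3.83-fold higher. The log2 folds were -0.67 ± 0.22 in HE1, 0.54 ± 0.22 in HE2 and 1.74 ± 0.22 in HP, so that the HE2 fold exceeded that of HE1 by 1.21 ± 0.31 and the HP fold exceeded that of HE2 by 1.20 ± 0.31. Within libraries of the same Lars2 class, 1 against 1, the HE1 values were -0.61 and -0.73 and the HP values 1.65 and 1.83. In HE2 the low class gave 0.71 (1 PlusDox against 2 NoDox). These values split the same libraries and add no separate support. Without NoDox HE2 replicate 1 the HE2 value was 0.29.

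The balance of the 2 receptor parts can be read from the ratio of Calcrl to Ramp2 FPKM. It was 0.200 and 0.214 in PlusDox HE1 against 0.158 and 0.127 in NoDox HE1, and 0.163 and 0.250 in PlusDox HE2 against 0.253 and 0.246 in NoDox HE2. In HP it was 1.20 and 1.27 with doxycycline against 3.50 and 4.12 without. Ramp2 thus outnumbered Calcrl per length in every HE1 and HE2 library, and the reverse held in every HP library. Of the other partners of this receptor, Ramp1 stayed below 1 FPKM in every library, and Ramp3 was at most 9.16 FPKM, in NoDox HE1 replicate 2.

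**Figure D2:**
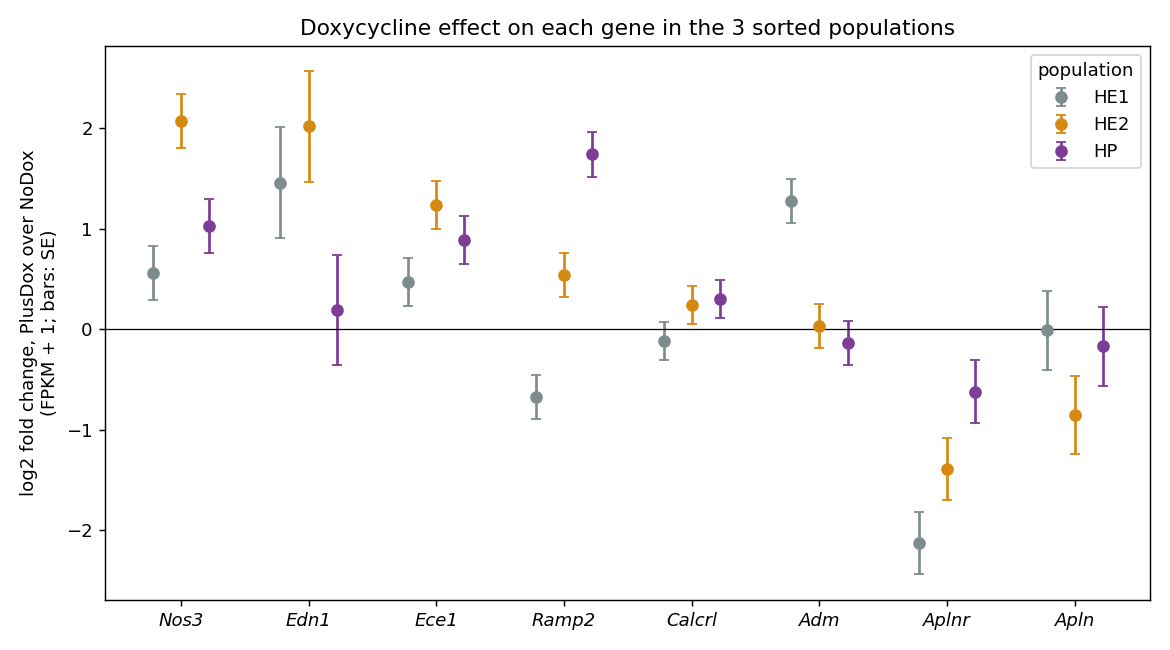
Log2 fold change, PlusDox over NoDox on FPKM + 1, for each gene (horizontal axis) in HE1 (grey), HE2 (orange) and HP (purple), with bars of 1 SE. Ramp2 lies at -0.67, 0.54 and 1.74 in HE1, HE2 and HP, and Aplnr lies below 0 in all 3, at -2.13, -1.39 and -0.62.

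Aplnr, the apelin receptor, was lower with doxycycline in all 3 populations, and no PlusDox library overlapped a NoDox library of its population. In HE1 it had 25.6 and 23.5 FPKM with doxycycline, against 104 and 118 FPKM without, a NoDox mean 4.53-fold the PlusDox mean. In HE2 it had 15.0 and 20.5 FPKM with doxycycline, against 31.3 and 72.5 FPKM without. The NoDox HE2 replicates thus differed more from each other than did the PlusDox ones. In HP it had 1.24 and 1.37 FPKM with doxycycline, against 2.28 and 2.81 FPKM without. The log2 folds were -2.13 ± 0.31 in HE1, -1.39 ± 0.31 in HE2 and -0.62 ± 0.31 in HP. Within Lars2 classes, 1 library against 1, the HE1 values were -2.16 and -2.10, which split the same libraries and add no separate support. The HE2 value was -0.80 without NoDox HE2 replicate 2 and -1.99 without NoDox HE2 replicate 1.

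Apln, the ligand of this receptor, did not change by the test in any population. It had 3.34 and 6.87 FPKM in PlusDox HE1 against 2.66 and 8.47 FPKM in NoDox HE1 (log2 fold -0.01 ± 0.39, limma adjusted p = 1). It had 0.979 and 1.70 FPKM in PlusDox HE2 against 3.15 and 3.16 FPKM in NoDox HE2 (-0.85 ± 0.39, limma adjusted p = 0.230). It had 0.629 and 0.684 FPKM in PlusDox HP against 1.12 and 0.631 FPKM in NoDox HP (-0.17 ± 0.39, limma adjusted p = 0.993). The arms overlapped in HE1 and HP and not in HE2. Apela, which encodes the other ligand of the receptor, exceeded 1 FPKM in 1 library, NoDox HE2 replicate 1 (1.22 FPKM). Receptor exceeded ligand in every library, with an Aplnr to Apln ratio of 7.66 and 3.42 in PlusDox HE1 against 39.2 and 14.0 in NoDox HE1.

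Edn1, Ece1, Calcrl and Apln were neither chosen on a value nor let past the filter by 1 group alone. Of these 4, limma called 0 with doxycycline in HE1, 1 in HE2 (Ece1, higher) and 0 in HP. The share of all tested genes called was 1.37% in HE1, 6.06% in HE2 and 0.834% in HP, and the median log2 fold over all genes was -0.07, -0.05 and -0.00. An unadjusted limma p under 0.05 was found for 1 of the 4 in HE1, 2 in HE2 and 1 in HP, and for 9.59%, 22.3% and 9.39% of all genes. The HE1 count over the 5 unchosen genes was 1, Adm, which had passed the filter as described above. In each of the 3 differences between populations 0 of the 4 were called by limma. At an unadjusted p under 0.05 they were 1 of 4 for HE2 minus HE1, 1 for HP minus HE2 and 0 for HP minus HE1, where all genes gave 6.70%, 6.57% and 6.53%. Those differences called 0.0451% (HE2 minus HE1), 0.0150% (HP minus HE2) and 0.0375% (HP minus HE1) of all genes. The 3 pairs of populations share libraries, so the differences are not independent of each other.

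The endothelial markers of the same libraries give a scale for the 3 chosen genes. With doxycycline 2 of 8 markers were called higher in HE2 (Cldn5 and Esam), 1 in HP (Cdh5) and 0 in HE1, with median log2 folds of 0.59, 0.61 and 0.13. In HE2 3 of 8 blood markers were called higher as well (Coro1a, Ptprc and Spn), 1 of 7 tested smooth muscle and mesenchyme markers lower (Pdgfrb), 1 of 4 erythroid markers lower (Alas2) and 1 of 3 tested cardiac markers lower (Tnnt2). In HE1 1 of 8 blood markers was called higher (Laptm5), and in HP 1 of 8 blood markers was called higher (Spn) and 1 of 4 erythroid markers lower (Alas2). The part of these markers' cells in the values below was not tested. Nos3 made up 4.70% and 3.36% of summed marker FPKM in PlusDox HE2 against 1.20% and 1.25% in NoDox HE2, and 7.70% and 5.34% in PlusDox HE1 against 4.55% and 3.82% in NoDox HE1. Ramp2 made up 28.3% and 22.8% of that sum in PlusDox HE2 and 24.9% and 23.6% in NoDox HE2, so that the arms overlapped there on this scale. In HE1 it made up 26.2% and 22.7% with doxycycline against 40.7% and 34.3% without, and in HP 5.85% and 8.31% against 3.14% and 3.16%. Aplnr stayed lower with doxycycline on this scale in each population, at 1.66% and 1.70% in PlusDox HE1 against 8.17% and 6.58% in NoDox HE1. Ece1 stayed higher in HE2, at 6.88% and 7.46% in PlusDox against 3.83% and 4.51% in NoDox.

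**Figure D3:**
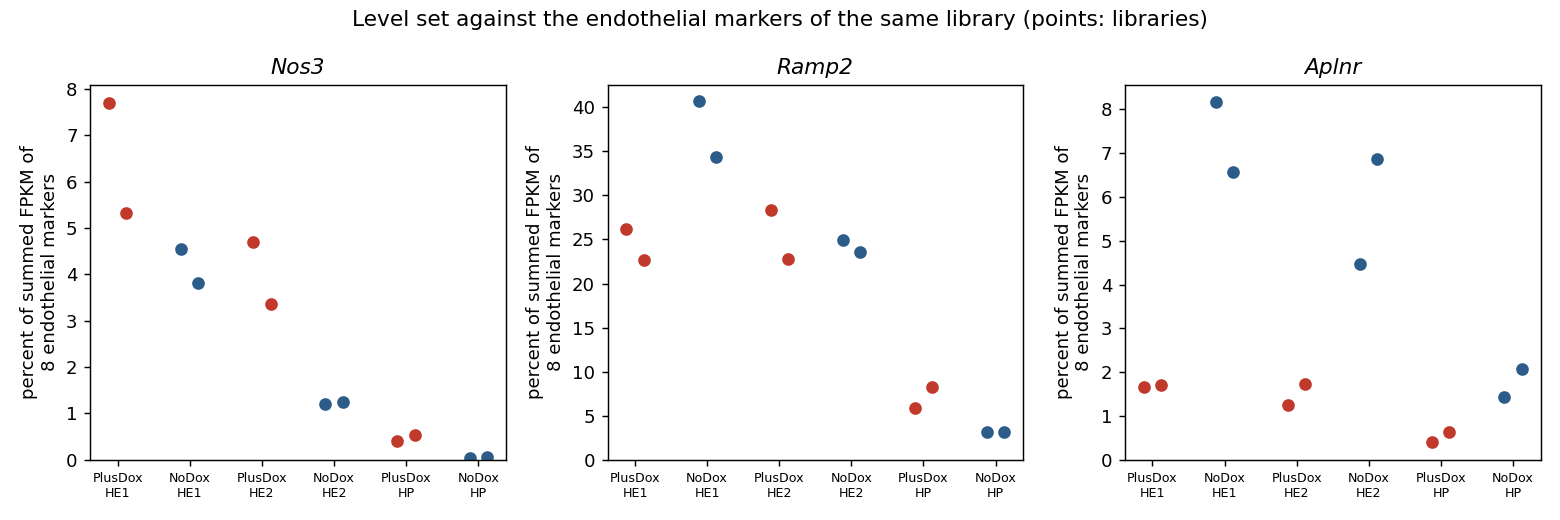
Nos3, Ramp2 and Aplnr as percent of the summed FPKM of 8 endothelial markers of the same library (points, PlusDox red and NoDox blue, each population with PlusDox left of NoDox). Ramp2 overlaps in HE2, at 22.8% and 28.3% with doxycycline and 23.6% and 24.9% without, while Nos3 in HE2 does not.

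Along the path without doxycycline, from HE1 to HE2 to HP, Edn1 and Ece1 fell at each step. Nos3, Ramp2 and Aplnr were chosen on values of these same NoDox libraries, so their steps are a description with no test. From HE1 to HE2, 2 of the 4 genes Edn1, Ece1, Calcrl and Apln were called by limma, both lower, where 10.1% of all tested genes were called (4.45% lower). Ece1 had a log2 change of -1.48 ± 0.24 (adjusted p = 0.00347) and Edn1 of -1.99 ± 0.55 (0.0397). Calcrl at -0.61 (limma adjusted p = 0.0646) and Apln at -0.50 (0.427) did not pass. Ece1 lost its call without NoDox HE1 replicate 2 (adjusted p = 0.0544). Edn1 lost its call without NoDox HE1 replicate 2, NoDox HE2 replicate 1 or either NoDox HP library (adjusted p = 0.0539 to 0.351). Nos3 had a log2 change of -2.47 ± 0.27, Ramp2 of -1.43 ± 0.22, Aplnr of -1.20 ± 0.31 and Adm of 0.33 ± 0.22. Of the endothelial markers, 3 of 8 were called lower over the same step (Esam, Pecam1 and Tek), with a median log2 change of -0.93 over the 8.

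From HE2 to HP without doxycycline, 3 of those 4 genes fell by the limma test, where 16.0% of all tested genes were called (10.6% lower). Ece1 had a log2 change of -3.19 ± 0.24 (adjusted p = 7.04e-06), Edn1 of -3.02 ± 0.55 (0.00228) and Calcrl of -1.52 ± 0.19 (0.000209), and Apln (-1.16, 0.0680) did not pass. The 3 calls stood whichever library was left out. Ramp2 had a log2 change of -5.22 ± 0.22, Aplnr of -3.78 ± 0.31, Nos3 of -3.43 ± 0.27 and Adm of -0.14 ± 0.22, as a description. All 8 endothelial markers were called lower over this step, with a median log2 change of -2.98, and Calcrl kept 17.5 and 17.6 FPKM in NoDox HP.

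With doxycycline, the HE1 and HE2 levels of Nos3, Ramp2, Aplnr, Edn1, Ece1 and Calcrl lay closer together on the log2 scale than without it. Those of Apln and Adm did not. In FPKM the Edn1 means lay further apart, at 130 and 48.9 with doxycycline and 51.7 and 13.6 without. Nos3, Ramp2 and Aplnr were chosen on this response. The HE2 minus HE1 difference of doxycycline effects did not pass for Edn1 (0.56 ± 0.77, limma adjusted p = 0.973) or Ece1 (0.76 ± 0.34, 0.719). Nor did it for Calcrl (0.36 ± 0.27, limma adjusted p = 0.910) or Apln (-0.84 ± 0.55, 0.891). The median log2 change of the 8 endothelial markers from HE1 to HE2 was -0.28 with doxycycline, with 0 called, and -0.93 without. The part of such cells in these values was not tested. From HE1 to HE2, 0 of the 4 genes Edn1, Ece1, Calcrl and Apln were called by limma, where 8.59% of all tested genes were called, and 3 of the 4 had an unadjusted p under 0.05, against 24.9% of all genes. Edn1 (-1.44, limma adjusted p = 0.130), Ece1 (-0.72, 0.0907), Calcrl (-0.26, 0.429) and Apln (-1.34, 0.0562) did not pass. Adm, past the filter through PlusDox HE1, had -0.92 ± 0.22, and its adjusted p of 0.0250 was 0.0503 with no filter, so no call is read from it. Nos3 had -0.96, Ramp2 -0.23 and Aplnr -0.46, as a description. From HE2 to HP, 3 of the 4 were called lower, where 16.9% of all tested genes were called: Edn1 at -4.84 ± 0.55 (limma adjusted p = 0.000109), Ece1 at -3.54 ± 0.24 (6.15e-06) and Calcrl at -1.45 ± 0.19 (0.000313). Nos3 had -4.47, Ramp2 -4.02 and Aplnr -3.01 over that step. All 8 endothelial markers were called lower there, with a median log2 change of -2.65. The 2 arms use different libraries, and the difference between their steps is the difference of doxycycline effects given above.

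**Figure D4:**
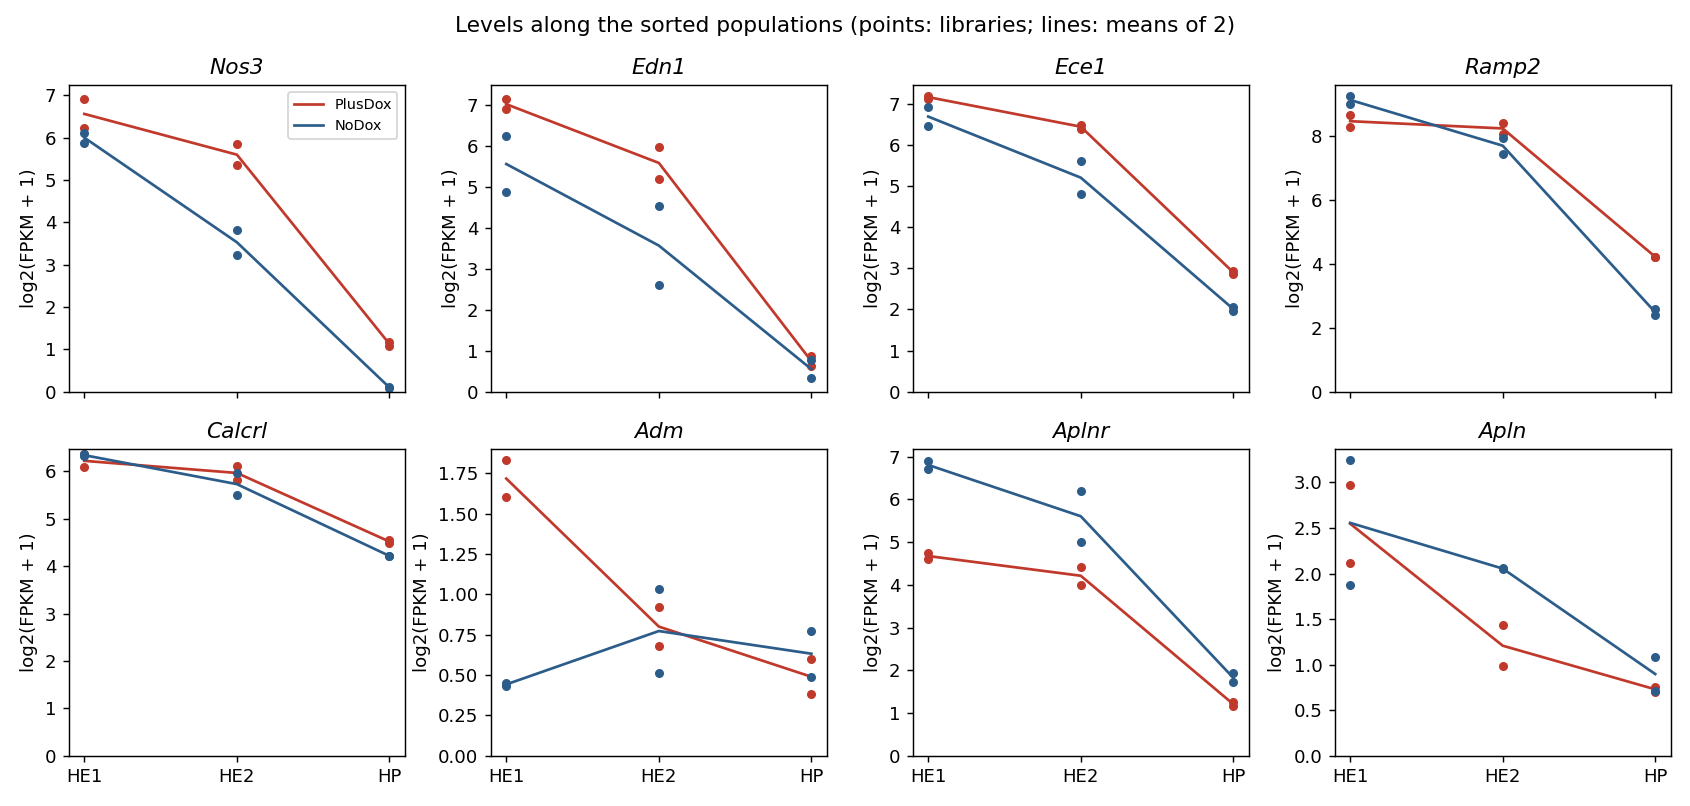
Level of each gene as log2(FPKM + 1) along HE1, HE2 and HP with doxycycline (red) and without (blue); points are libraries and lines join the means of 2. Without doxycycline Nos3 changed by -2.47 from HE1 to HE2, and with doxycycline by -0.96.

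Each gene can be placed by the order of its 6 group means. For Nos3 the order from the highest was PlusDox HE1, NoDox HE1, PlusDox HE2, NoDox HE2, PlusDox HP and NoDox HP, and no neighbouring groups overlapped. Ece1 followed the same order, and its NoDox HE1 and PlusDox HE2 libraries overlapped (87.2 and 119 FPKM against 82.9 and 88.7 FPKM). Ramp2 ran from NoDox HE1 through PlusDox HE1, PlusDox HE2 and NoDox HE2 to PlusDox HP and NoDox HP, and PlusDox HE1 and PlusDox HE2 overlapped (405 and 312 FPKM against 341 and 271 FPKM). Aplnr ran from NoDox HE1 and NoDox HE2 to PlusDox HE1, PlusDox HE2, NoDox HP and PlusDox HP, with no overlap of neighbours.

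Across the 12 libraries Nos3 ran most closely with Ece1 among the 8 genes (Pearson r = 0.993 on the log2 scale), and Ramp2 with Calcrl (0.983). Adm stood apart, at r = 0.125 to 0.536 with the other 7. Among 9443 expressed genes, those nearest to Nos3 were Snrk (0.998), Sema6a (0.995) and Zfp532 (0.994), and those nearest to Ramp2 were Ptprb (0.995), Id3 (0.994) and Slc9a3r2 (0.992). Those nearest to Aplnr were Atp6v0e2 (0.989), Stox2 (0.983) and Sall2 (0.982). Ece1 was nearest to Fstl1 and Dpysl3 (both 0.997) and Acvrl1 (0.996), Edn1 to Tax1bp3 (0.994), Prex2 and Mfhas1 (both 0.993), and Calcrl to Col5a2, Bcl6b and Sema6d (all 0.993). Apln was nearest to Tmem206 (0.924), Cryab (0.921) and Ramp3 (0.919), and Adm to Myl9 (0.859), Gadd45b (0.841) and Nmt2 (0.814). These correlations describe 12 points that share 3 populations, over which 7 of the 8 genes had their lowest mean in HP in both arms.

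Of 56 other genes of the same pathways, all were in the files and 29 passed the filter: 12 of 18 of nitric oxide and cGMP, 3 of 7 of endothelin, 4 of 10 of adrenomedullin and CGRP, 0 of 2 of apelin, and 10 of 19 of angiotensin, prostanoids, kinins and natriuretic peptides. With doxycycline 1 of 29 was called lower in HE1, 4 of 29 higher in HE2, and 1 higher and 1 lower in HP, where 1.37%, 6.06% and 0.834% of all tested genes were called. With no filter on low values these counts were 0, 1 and 0. Over the 29 the median log2 folds were -0.01, 0.11 and 0.04. Ptgs1, the cyclooxygenase that starts prostanoid synthesis, fell in HE1 to 2.49 and 0.939 FPKM with doxycycline, against 9.34 and 7.45 FPKM without (log2 fold -1.85 ± 0.30, limma adjusted p = 0.0107). Its call was lost without NoDox HE1 replicate 1 (adjusted p = 0.160) and without PlusDox HE1 replicate 2 (0.0705).

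Tbxas1, which makes the constrictor thromboxane, rose in HE2 to 3.95 and 2.49 FPKM with doxycycline, against 0.0710 and 0.114 FPKM without (1.93 ± 0.21, limma adjusted p = 0.000669). This call stood whichever library was left out. Tbxas1 also rose in HP, at 5.62 and 4.97 FPKM with doxycycline against 2.08 and 2.02 FPKM without (1.04 ± 0.21, limma adjusted p = 0.0452). The HP call was lost in 8 of 12 fits, without any one HP, NoDox HE1 or NoDox HE2 library. Npr1 and Npr2, receptors for natriuretic peptides that make cGMP, and Pam, which amidates adrenomedullin, rose in HE2 as well. Npr1 had 21.8 and 21.5 FPKM in PlusDox HE2 against 8.63 and 13.1 FPKM in NoDox HE2 (0.96 ± 0.24, limma adjusted p = 0.0357). Npr2 had 7.36 and 4.60 FPKM in PlusDox HE2 against 1.24 and 2.90 FPKM in NoDox HE2 (1.21 ± 0.32, limma adjusted p = 0.0446). Pam had 30.6 and 35.4 FPKM in PlusDox HE2 against 14.3 and 19.8 FPKM in NoDox HE2 (0.93 ± 0.21, limma adjusted p = 0.0273). The arms did not overlap for any of the 3.

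These HE2 calls leaned on single libraries. Npr1 lost its call in 7 of 12 fits and kept it without NoDox HE2 replicate 2, either PlusDox HE1 library or either PlusDox HP library. Npr2 lost it in 9 of 12 and kept it without NoDox HE2 replicate 2 or either PlusDox HE1 library. Pam lost it without NoDox HE2 replicate 1 or either PlusDox HE2 library (adjusted p = 0.0551 to 0.243). Ddah1, which clears an inhibitor of nitric oxide synthases, fell in HP to 22.8 and 17.7 FPKM with doxycycline, against 49.3 and 36.2 FPKM without (-1.04 ± 0.20, limma adjusted p = 0.0362). Its call was lost without any one of the 4 HP libraries or either NoDox HE1 library. None of the 29 was called by limma in a difference between populations, with 7 at an unadjusted p under 0.05 for HE2 minus HE1, 2 for HP minus HE2 and 8 for HP minus HE1, where all genes gave 6.70%, 6.57% and 6.53%.

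**Figure D5:**
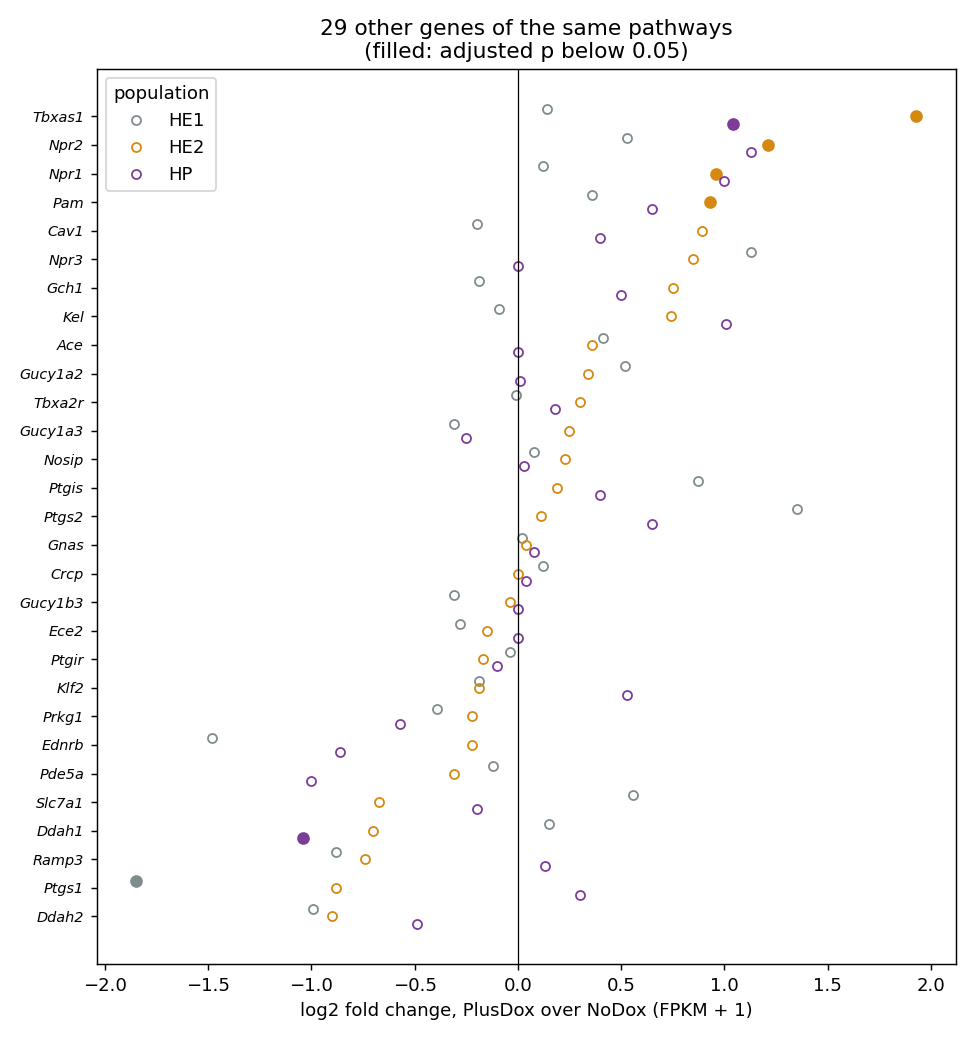
Log2 fold change, PlusDox over NoDox on FPKM + 1, of the 29 other pathway genes that passed the filter, in HE1 (grey), HE2 (orange) and HP (purple); filled points have a limma adjusted p below 0.05. Tbxas1 is filled in HE2 (1.93) and HP (1.04), and Ptgs1 is filled in HE1 (-1.85).

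Over the population steps the other pathway genes moved both ways. From HE1 to HE2 without doxycycline 4 of 29 rose and 1 fell, where 10.1% of all tested genes were called, and the 5 calls became 0 without NoDox HE1 replicate 2 or NoDox HE2 replicate 1 and 1 with no filter. From HE2 to HP 6 rose and 6 fell, where 16.0% of all tested genes were called. Gucy1a3 and Gucy1b3, older symbols of the subunits of the nitric oxide receptor guanylate cyclase, rose from HE1 to HE2. Gucy1a3 had 8.13 and 3.77 FPKM in NoDox HE2 against 1.27 and 0.0851 FPKM in NoDox HE1 (log2 change 2.07 ± 0.40, limma adjusted p = 0.00779), and 25.6 and 20.1 FPKM in NoDox HP. Gucy1b3 averaged 4.36 ± 1.24 FPKM in NoDox HE2 and 1.77 ± 0.469 FPKM in NoDox HE1 (SD, n = 2 each; log2 change 0.94 ± 0.25, limma adjusted p = 0.0352). Ptgs1 rose over that step (1.37 ± 0.30, limma adjusted p = 0.0148) and Npr1 fell (-1.23 ± 0.24, adjusted p = 0.00793). Each of these 4 calls was lost without NoDox HE1 replicate 2 and without NoDox HE2 replicate 1, that of Gucy1b3 also without NoDox HE1 replicate 1 and that of Ptgs1 also without NoDox HE2 replicate 2.

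From HE2 to HP without doxycycline the largest called changes were those of Npr1 (-3.41 ± 0.24, limma adjusted p = 4.12e-06), Cav1 (-2.68 ± 0.72, 0.0244), Klf2 (-2.67 ± 0.27, 4.16e-05) and Kel (1.94 ± 0.36, 0.00280). Cav1 encodes the caveolar protein that holds the nitric oxide synthase inactive, Klf2 a flow-responsive factor of endothelium, and Kel a red cell protein that can cut endothelin precursors. The Cav1 call was lost without NoDox HE2 replicate 2 or either NoDox HP library (highest adjusted p 0.209), and the other 3 stood whichever library was left out. All 4 erythroid markers were called higher over the same step, with summed FPKM of 9630 to 11370 in NoDox HP against 1291 to 1356 in NoDox HE2. The part of red cells in the Kel value was not tested.

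With doxycycline 5 of 29 rose and 1 fell from HE1 to HE2, and 6 rose and 6 fell from HE2 to HP, where 8.59% and 16.9% of all tested genes were called. With no filter the 12 calls from HE2 to HP became 7. Gucy1a3 rose from HE1 to HE2 by 2.64 ± 0.40 (limma adjusted p = 0.00201), Ptgs1 by 2.34 ± 0.30 (0.000752) and Tbxas1 by 1.90 ± 0.21 (0.000285), each whichever library was left out. Kel, called higher there, was listed at 0 in both PlusDox HE1 libraries, against 0.922 and 2.64 FPKM in PlusDox HE2, and lost its call without either PlusDox HE1 library or PlusDox HE2 replicate 2 (highest limma adjusted p 0.181). From HE2 to HP Npr1 (-3.36 ± 0.24, limma adjusted p = 6.64e-06), Cav1 (-3.17 ± 0.72, 0.00975), Kel (2.21 ± 0.36, 0.00122) and Klf2 (-1.95 ± 0.27, 0.000377) had the largest called changes. The Cav1 call was lost without PlusDox HE2 replicate 2 (adjusted p = 0.0822) or PlusDox HP replicate 1 (0.0716).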

How the data were processed

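The deposited files hold 1 value per gene name for each library, without a header. The submitters' processing notes name StringTie 1.3.3, HISAT2 2.1.0, Trimmomatic 0.32 and build mm10, without saying what each was used for. The values were read as FPKM made by the authors, an inference from StringTie being named and from sums that differ between libraries (468326 to 579055). Annotation and strand setting: not given in the sources used here. No read counts were used here, so depth rests on an estimate: FPKM times transcript length recurs in steps of 1 fragment, and the next-best reading lay up to 1.01 log2 units away, higher or lower.

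Repeated names, 2 to 4 per file, were summed. Genes with at least 1 FPKM in at least 2 of 12 libraries were tested on log2(FPKM + 1) with limma 3.58.1 in R 4.3.3, with 6 group means and an intensity trend (6 residual and 5.83 prior degrees of freedom). P-values were two-sided, adjusted by Benjamini-Hochberg over all 13316 genes of a comparison and called below 0.05. They rest on 2 biological replicates per group, pooled over the 6 groups, and the labels do not say how the replicates were grown. The fit was also run on simulated data with planted changes and independent noise. These had no population differences and no deviations shared by replicate number or Lars2 class. That run therefore does not show how the fit holds for these libraries. Python 3.11.15 with pandas 2.3.3, numpy 2.4.6 and matplotlib 3.10.9 read and drew the values. RefSeq tables of GRCm38.p6 gave positions and promoters.

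The members and lists were chosen with earlier results of these data known. Tests of Nos3, Ramp2 and Aplnr over the steps without doxycycline had been planned, but those libraries also gave the response that chose the 3 genes, so their values are given without a test. Named were all 8 members, up to 4 called pathway genes with the largest fold per comparison, and the 3 genes nearest to each member by Pearson r. These came from tested genes of at least 5 FPKM in a group, leaving out predicted genes, RIKEN clones and small RNAs. Runx1-Evi1 was followed through Mecom and Runx1, and the pathway genes at or near 0, Ednrb, Ramp3 and the Lars2 group were named after their values were seen. Alternatives were a pseudocount of 0.1, no filter, quantile normalization, a replicate block, a term for the 5 libraries with Lars2 above 1000 FPKM, and leaving out each library in turn, where a lone library is assumed to vary like the other groups.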

Additional observations from a re-analysis of the deposited data

Results flagged for a closer look

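Ramp2 differed in direction with doxycycline between populations. It was lower in every PlusDox HE1 library than in any NoDox HE1 library, and higher in every PlusDox HE2 and PlusDox HP library than in the NoDox libraries of the same population. Its HE2 log2 fold minus that of HE1 was 1.21, and its HP fold minus that of HE1 was 2.40. Ramp2 was picked for its doxycycline response, so these differences are descriptions and were not tested. The summed FPKM of 8 endothelial markers overlapped between the arms in HE1 (1380 to 1546 in PlusDox and 1274 to 1799 in NoDox) and stood higher with doxycycline in HE2 (1189 to 1205 in PlusDox and 700.1 to 1056 in NoDox) and HP (213 to 304 in PlusDox and 135 to 159 in NoDox). Their part in the Ramp2 values was not tested.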

How the results depend on the processing

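Depth is known only as an estimate, each group has 2 libraries, and genes near 0 FPKM depend on the pseudocount. Of 79 folds refitted in 17 settings (1343 refits), 1177 kept direction and call or, where untested, kept direction and stayed within 1 SE. The totals here include calls once planned for Nos3, Ramp2 and Aplnr in the steps without doxycycline, which are read as no support. Of the other refits, 149 lost a call, 7 gained one, 9 untested values moved by more than 1 SE and 1 reversed. That one is the Adm difference of HP minus HE2, -0.17, which was 0.09 without NoDox HE2 replicate 2 and -0.43 without NoDox HE2 replicate 1. The causes were not tested beyond what each setting itself changes.

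Of Edn1, Ece1, Calcrl and Apln, the 0 called with doxycycline in HE1 became 1 with a replicate block, as did the 0 in HP. In HE2 the 1 became 0 with no filter, 2 with quantile normalization and 2 with the block, and 0 to 2 when a library was left out (0 without NoDox HE2 replicate 1 or PlusDox HE2 replicate 2). From HE1 to HE2 without doxycycline the 2 became 1 with a pseudocount of 0.1, with no filter and with the library class term, and 0 to 3 when a library was left out. With doxycycline the 0 became 2 with quantile normalization and 3 with the block, and 0 to 2 when a library was left out. Counts with Adm included, read as no support, were 1 in HE1 (0 with a pseudocount of 0.1, 2 with the block, 0 to 1 when a library was left out), 1 in HE2 (0, 2 and 2 with no filter, quantile normalization and the block, 0 to 2), 0 in HP (1 with the block) and 1 in the step from HE1 to HE2 with doxycycline (0 with a pseudocount of 0.1, 0 with no filter, 3 with quantile normalization, 4 with the block, 0 to 3). With the 3 chosen genes included as well, the step from HE1 to HE2 without doxycycline gave 5 (3 with no filter, 3 with the class term, 2 to 6). That count is also read as no support, since the 3 were chosen on values of these libraries. Of all tested genes, 10.1% were called in this step. Edn1 in HE2 passed with quantile normalization (adjusted p = 0.0472) and with the replicate block (0.00228), as did Edn1 in HE1 (0.0339) and Ece1 in HP (0.0385) with the block, all by limma.

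For replicate 2 minus replicate 1, Pearson r over genes was 0.239 to 0.526 between groups other than NoDox HE1. Pairs with NoDox HE1 gave -0.100 to 0.322. Same-numbered replicates thus deviated together outside NoDox HE1, and the fit of group means has no term for this. The labels do not say how the replicates were grown, so the numbers were not taken to pair the samples. The replicate block is therefore given as an alternative. Counts over all genes moved more. In HE1 182 became 97 with a pseudocount of 0.1, 351 with quantile normalization and 459 with the block. In HE2 807 became 450 without a filter, 1824 with quantile normalization, 2296 with the block and 1254 with the class term. In HP 111 became 305 with the block and 175 with the class term. The HE1 to HE2 step called 1348 without doxycycline, and 833 without a filter, 2122 with quantile normalization and 3126 with the block. With doxycycline it called 1144, and 2048, 2420 and 2354 with quantile normalization, the block and the class term. The HE2 to HP step with doxycycline called 2251, and 3394 and 3388 with quantile normalization and the block. The 6, 2 and 5 genes called in the differences ranged from 0 to 54 over these settings. When a library was left out, the all-gene counts ranged from 2 to 193 in HE1, 171 to 879 in HE2 and 10 to 124 in HP, 256 to 1420 and 387 to 1143 in the HE1 to HE2 step without and with doxycycline, and 1164 to 2196 and 1300 to 2322 in the HE2 to HP step. The lowest step counts were those without NoDox HE1 replicate 2, PlusDox HE2 replicate 1, NoDox HP replicate 2 and PlusDox HP replicate 2. Among the 29 pathway genes, the 1, 4 and 2 called with doxycycline became 6, 10 and 4 with the block. The 4 in HE2 became 2 with a pseudocount of 0.1 and 7 with quantile normalization. When a library was left out these counts ranged over 0 to 2, 1 to 4 and 0 to 3. In the steps from HE1 to HE2 the 5 and 6 became 8 and 11 with the block, and the 12 of each step from HE2 to HP ranged from 8 to 12 without and 8 to 13 with doxycycline. Over all genes, the median of the log2 change before minus after quantile normalization was 0.146 from HE1 to HE2 without doxycycline. It was 0.147 from HE1 to HE2 with doxycycline and -0.117 from HE2 to HP without. A positive value means that quantile normalization lowered the change. The members called in those steps kept their direction and call under quantile normalization.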
